A study of Mus musculus with 14 samples.

Results

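The genes of the constitutive proteasome and its regulators were followed in splenocytes of mice that carry or lack a working STING protein. The list held 42 genes, chosen by name: the subunits of the core and regulatory particles, the alternative activators, the inhibitor and the assembly chaperones. Each gene was read from the probe whose accession RefSeq pairs with its symbol, and among several such probes from the brightest, provided that 7 or more of the 14 arrays read it well above background. Of the 42 genes, 41 were measured, out of 24908 genes tested on the arrays. Of these 24908, 14729 have a symbol. The rest are accessions that matched none, each counted as a gene, and the shares of all genes below include them. Psme2, which encodes the beta subunit of the PA28 activator, was paired with no probe and is not analysed here. All 41 genes were well above background on all 14 arrays, none was saturated, and no value was missing.

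Splenocytes came from 7 wild-type (WT) C57BL/6 mice and 7 Sting gt/gt mice, labelled as 10 to 14 weeks old, which the methods give as the age at immunization, and 1 one-colour Agilent array was made per sample. Sting gt/gt (Tmem173gt, golden ticket) is a mutation of the Sting gene induced chemically with ENU on the C57BL/6 background. Every mouse of both groups had been injected intradermally with complete Freund's adjuvant and chick type II collagen (CFA + CII) 2 weeks earlier, and no uninjected mouse enters the comparison. The WT mice were purchased and the Sting gt/gt mice came from another laboratory, so genotype and source of the animals cannot be told apart.

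The proteasome is the barrel-shaped protease that degrades proteins tagged with ubiquitin. Its core particle is a stack of alpha and beta rings with the catalytic sites inside the barrel, and its regulatory particle binds ubiquitin chains, unfolds the substrate with a ring of ATPases and feeds it into the core. In the spleen it supplies peptides for MHC class I, degrades inhibitors of NF-kappaB signalling, and serves plasma cells, which secrete large amounts of antibody. Immune cells can exchange the constitutive catalytic subunits for those of the immunoproteasome, which interferon induces.

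Array brightness, as the 75th percentile of processed signal, was 587 to 766 in WT and 562 to 697 in the mutants, and correlations between arrays ran from 0.962 to 0.993. Values below are log2 signal relative to that percentile of the same array, and differences are log2, Sting gt/gt minus WT. The RNA of Sting1 did not separate the genotypes, with a lowest, median and highest value of 2.35, 2.64 and 2.85 in WT and of 2.45, 2.65 and 2.77 in Sting gt/gt, so it gives no check of the labels. Replicates 1-3 and 4-7 of both genotypes were scanned on different days. In replicates 4-7 all 4 Sting gt/gt arrays lay on 1 slide and the WT arrays on other slides, so slide and genotype cannot be told apart there. A gene was called at an unadjusted p under 0.05 in limma, with the Benjamini-Hochberg adjusted p over all genes tested beside it. In whole splenocytes, fewer cells of a type and less RNA per cell cannot be told apart.

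With all 7 mice of each genotype, none of the 41 proteasome genes was called in either direction, where 3.48% of all genes tested were called. The differences were small: 36 genes lay above 0 and 5 below, with a median of 0.06 against 0.02 over all genes, and the range ran from -0.13 (Psmd5, a chaperone of regulatory particle assembly) to 0.21 (Psmg1, a chaperone of core assembly). The count at an unadjusted p under 0.05 was 0 by limma, 1 by the methods' t-test and 1 by the Mann-Whitney test, and the lowest adjusted p of the 41 in limma was 1.0. Without scaling the arrays, 21 genes in place of 36 lay above 0. With slide as a fixed block 21 lay above 0 and 20 below, with a median of 0.001. That fit compares the genotypes only on slides that held both, namely WT replicates 1, 2 and 3 with Sting gt/gt replicates 1 and 2. It therefore does not adjust the difference between all 7 mice of each genotype for slide.

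The 3 constitutive catalytic subunits showed overlapping groups, given here as the lowest, median and highest of 7 arrays. Psmb5, which carries the chymotrypsin-like activity, read 2.79, 3.04 and 3.40 in WT and 2.94, 3.20 and 3.35 in Sting gt/gt. Psmb6, the caspase-like subunit, read 4.91, 5.03 and 5.42 in WT and 4.87, 5.29 and 5.42 in Sting gt/gt. Psmb7, the trypsin-like subunit, read 2.004, 2.38 and 2.70 in WT and 2.18, 2.31 and 2.87 in Sting gt/gt. For all 3 the Sting gt/gt arrays lay within or across nearly the whole WT range. Limma's 95% interval of the difference ran from -0.14 to 0.33 for Psmb5, from -0.19 to 0.34 for Psmb6 and from -0.28 to 0.29 for Psmb7.

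Other named parts of the complex overlapped in the same way. Psma3, an alpha ring subunit, differed by 0.07 ± 0.10 (SE, n = 7 per group). Psmd14, the deubiquitinase of the lid, differed by 0.02 ± 0.12. Psme1, the alpha subunit of the interferon-inducible PA28 activator, differed by 0.12 ± 0.12. Psmf1, the inhibitor PI31, had the widest spread of the 41 genes within genotype and replicate set (SD 0.32), and its difference was -0.07 ± 0.16. None of these 4 was called, and for Psmf1 the sign turned to 0.02 without Sting gt/gt replicate 3. Among the alpha ring genes, Psma7 had the highest difference, 0.16 ± 0.09, which limma did not call; a two-sided exact permutation test over the 14 arrays gave p = 0.0303. It was named after its values were seen, and that p is not adjusted over the 41 genes.

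The replicate sets differed in direction, but that of replicates 1-3 depended on 1 array. In replicates 1-3 none of the 41 genes was called, against 3.86% of all genes, and 13 lay above 0 and 28 below, with a median of -0.05. Without Sting gt/gt replicate 3, 25 lay above 0 and 16 below there, with a median of 0.01. In replicates 4-7 there were 8 genes called, all higher in Sting gt/gt, which is 19.5% of the 41, where 23.3% of all genes were called in either direction, 11% higher and 12.3% lower. The share of the 41 genes called was thus near that of all genes. Of the 41, 34 lay above 0 and 7 below, with a median of 0.14 against 0.02 over all genes. None of the 8 passed the adjusted threshold, which 1.69% of all genes passed.

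**Figure D1:**
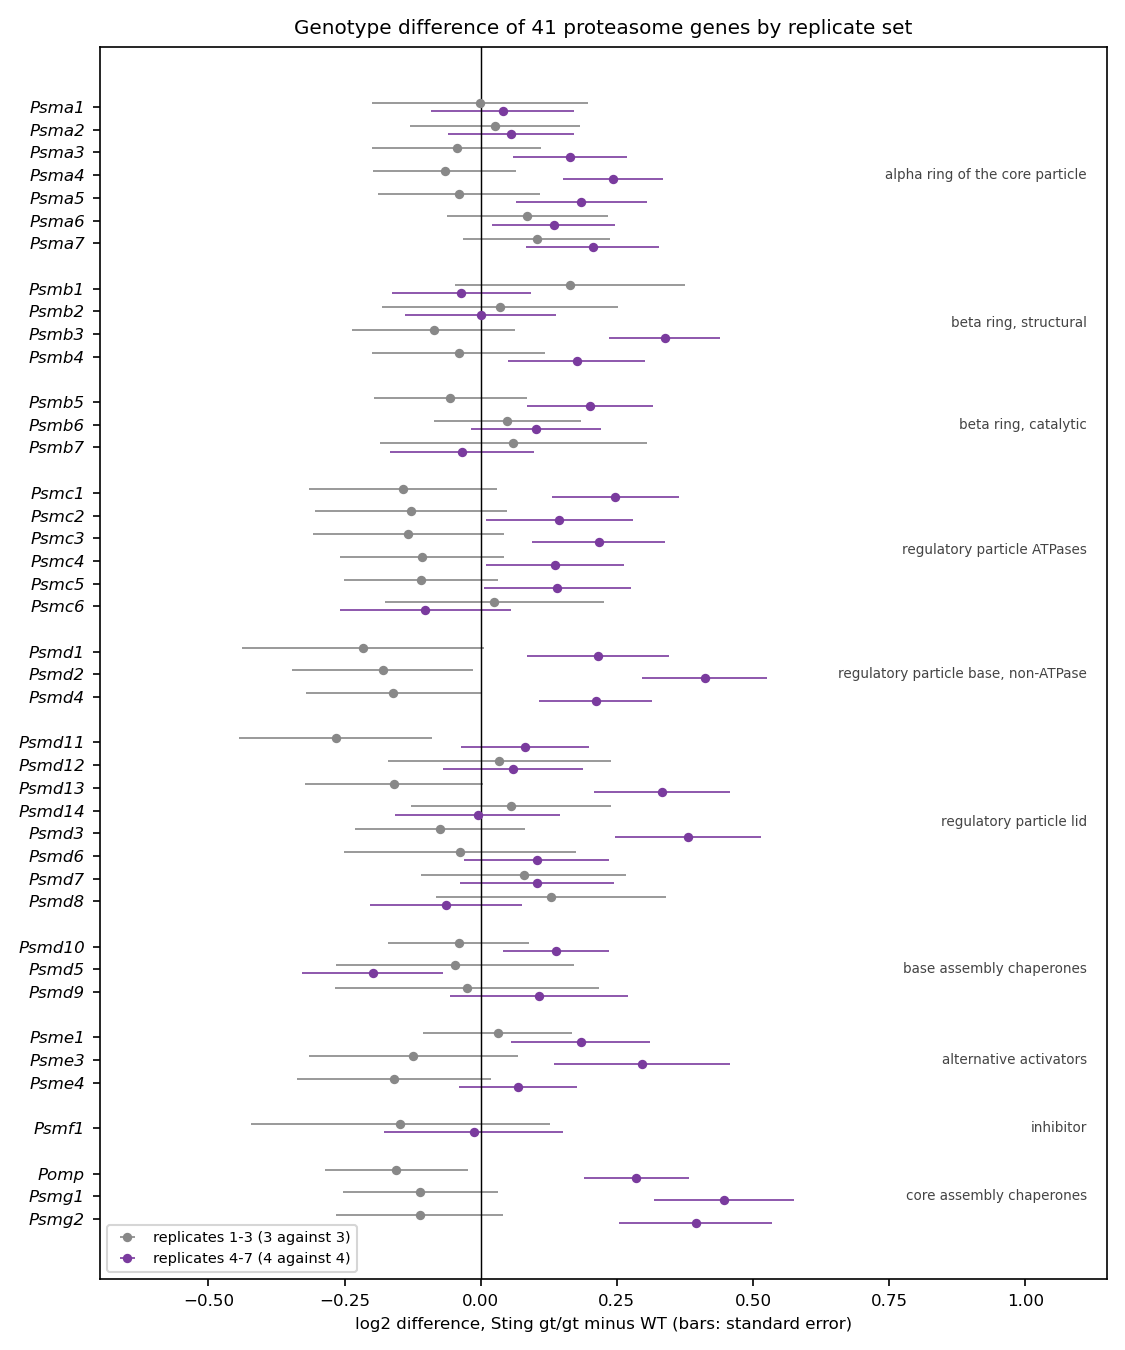
Log2 difference of each of the 41 proteasome genes, Sting gt/gt minus WT, with its standard error, for replicates 1-3 (grey) and 4-7 (purple), ordered by role in the complex. Most grey points lie at or left of 0 and 34 of the 41 purple points lie right of it, with the core assembly chaperones among the farthest.

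All 3 core particle chaperones of the list, Psmg1, Psmg2 and Pomp, were among the 8. Psmg3 and Psmg4, which also assist the core's assembly but are not in the list, differed by 0.41, with a call, and by 0.17, without one. Each genotype had 4 arrays. For Psmg1, which pairs with Psmg2 to build the alpha ring, WT replicates 4-7 read 2.91, 3.13, 3.36 and 3.02, and the Sting gt/gt arrays read 3.61, 3.74, 3.47 and 3.38. The lowest mutant array exceeded the highest WT array, and the difference was 0.45 ± 0.13 (SE, limma adjusted p = 0.0934). The other probe of Psmg1 gave 0.35.

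For Psmg2, WT replicates 4-7 read 1.42, 1.56, 1.89 and 1.62, and Sting gt/gt read 2.05, 2.29, 1.87 and 1.85. The groups overlapped through WT replicate 6, and the difference was 0.39 ± 0.14 (limma adjusted p = 0.144). For Pomp, the maturation factor that brings the beta subunits onto the alpha ring, WT read 5.55, 5.69, 5.78 and 5.57, and Sting gt/gt read 5.88, 6.03, 5.96 and 5.87. The groups did not overlap, and the difference was 0.29 ± 0.10 (limma adjusted p = 0.13). Pomp had 2 tested probes, and these values are those of the brighter. In replicates 1-3 the differences of Psmg1, Psmg2 and Pomp were -0.11, -0.11 and -0.16, with no call.

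From the core particle, Psma4 and Psmb3 were called. Psma4, of the alpha ring, read 5.01, 5.14, 5.23 and 5.10 in WT replicates 4-7 and 5.32, 5.43, 5.35 and 5.36 in Sting gt/gt. The groups did not overlap, with a difference of 0.24 ± 0.09 (limma adjusted p = 0.158). Of its other 3 probes, 1 gave 0.34 and the dimmer 2 gave 0.02 and 0.03. Psmb3, a structural subunit of the beta ring, read 5.08, 5.24, 5.27 and 5.10 in WT and 5.50, 5.66, 5.51 and 5.36 in Sting gt/gt. These groups too did not overlap, with a difference of 0.34 ± 0.10 (limma adjusted p = 0.104).

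From the regulatory particle, Psmd2, Psmd3 and Psmd13 were called. Psmd2, the large scaffold subunit of the base that binds ubiquitin receptors, read 4.16, 4.39, 4.38 and 4.13 in WT replicates 4-7 and 4.66, 4.79, 4.76 and 4.48 in Sting gt/gt. The groups did not overlap, and the difference was 0.41 ± 0.11 (limma adjusted p = 0.0868). The other probe of Psmd2 gave 0.34.

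Psmd3, of the lid, read 4.63, 4.88, 5.08 and 4.74 in WT and 5.26, 5.43, 5.17 and 4.99 in Sting gt/gt, a difference of 0.38 ± 0.13 (limma adjusted p = 0.141). Psmd13, also of the lid, read 4.74, 4.85, 4.94 and 4.55 in WT and 5.09, 5.30, 5.13 and 4.90 in Sting gt/gt, a difference of 0.33 ± 0.12 (limma adjusted p = 0.158). In both, WT replicate 6 lay above the lowest Sting gt/gt array, replicate 7. The second probe gave 0.22 for Psmd3 and 0.21 for Psmd13.

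Groups that did not overlap in replicates 4-7 were thus seen in 5 genes, all with Sting gt/gt higher, where 7.31% of all genes had that order, and in 0 genes with Sting gt/gt lower, where 7.43% had it. By role, the lid had 2 of its 8 genes called, the non-ATPase base 1 of 3, the alpha ring 1 of 7, and the structural beta ring 1 of 4. No gene was called among the 6 ATPases, which unfold the substrate, with differences from -0.10 to 0.25. The catalytic subunits ranged from -0.04 to 0.20, the base chaperones from -0.20 to 0.14 and the alternative activators from 0.07 to 0.30, also with no call. The count rested on single arrays: without WT replicate 4 it was 4, without Sting gt/gt replicate 5 it was 5, and without WT replicate 6 it was 13. Without scaling, 2 genes were called. With the replicate number as a block 7 of the 8 were called, and Psma4 was not (limma adjusted p = 0.216).

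**Figure D2:**
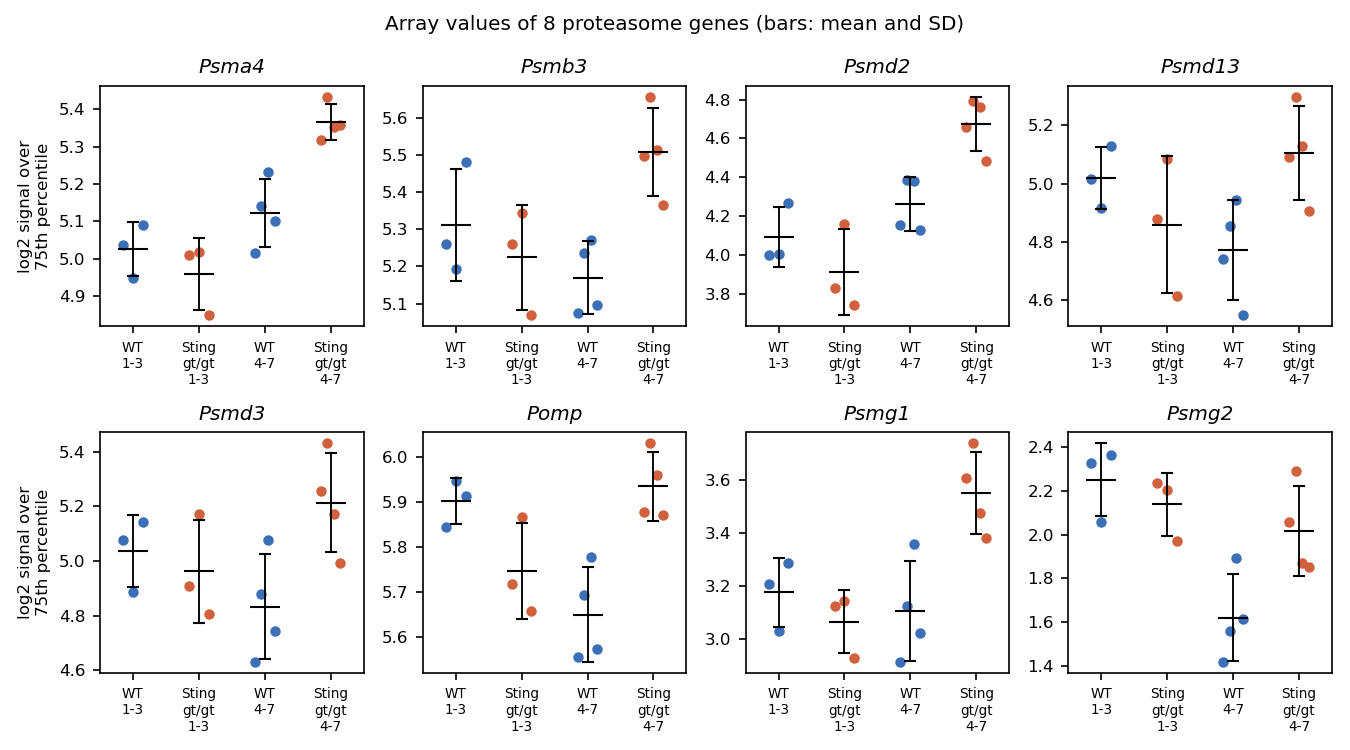
Log2 signal relative to the 75th percentile of the array for the 8 genes called in replicates 4-7, with 1 point per array and bars for the mean and SD, by genotype (blue WT, orange Sting gt/gt) and replicate set. In the right-hand pair of each panel the Sting gt/gt mean lies above WT, and in the left-hand pair it lies below; vertical axes do not start at 0.

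The test of the difference between the 2 genotype effects called 9 of the 41 genes, all with the larger value in replicates 4-7, which is 21.95% where 18% of all genes were called, 7.7% in that direction and 10.3% in the other. They were the 8 genes above and Psmd4, a ubiquitin receptor of the base, with 0.37 ± 0.17 (limma adjusted p = 0.278). The largest were Psmd2 with 0.59 ± 0.19 and Psmg1 with 0.56 ± 0.18. None passed the adjusted threshold (lowest adjusted p = 0.123, Pomp), which 0.767% of all genes passed. The count fell to 3 without WT replicate 3 or without Sting gt/gt replicate 3, to 4 without Sting gt/gt replicate 5, and to 5 without WT replicate 1, 4 or 7. It rose to 10 without WT replicate 2 or Sting gt/gt replicate 1, to 11 without Sting gt/gt replicate 2, and to 12 without WT replicate 6. Over all 24908 genes, 3622 to 5214 were called with arrays left out. With the replicate number as a block 5 of the 41 were called, namely Pomp, Psmb3, Psmd13, Psmd2 and Psmg1, where 4465 of all genes were.

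Promoter sequences were taken from RefSeq (build GRCm38.p6) for the 250 bases before each gene's start, which 35 of the 42 genes had. Of the 8 genes called in replicates 4-7, Psmd3 and Psmg2 had no entry. The other 6 are shown because all of them hold CGGAAG, the core that ETS factors bind. Capitals mark each match, written CTTCCG where it lies on the other strand, and all lines run 5′ to 3′ along the gene.
Psma4, chr9:54950609-54950858, plus strand: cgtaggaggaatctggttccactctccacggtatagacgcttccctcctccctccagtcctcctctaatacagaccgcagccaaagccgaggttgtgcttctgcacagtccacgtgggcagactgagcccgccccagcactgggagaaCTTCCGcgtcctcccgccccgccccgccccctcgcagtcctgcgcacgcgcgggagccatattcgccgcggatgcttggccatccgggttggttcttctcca
Psmb3, chr11:97703184-97703433, plus strand: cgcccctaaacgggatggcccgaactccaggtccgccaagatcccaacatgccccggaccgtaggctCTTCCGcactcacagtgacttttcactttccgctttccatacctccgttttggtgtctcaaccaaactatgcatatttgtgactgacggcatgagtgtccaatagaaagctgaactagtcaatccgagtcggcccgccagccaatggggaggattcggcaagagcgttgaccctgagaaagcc
Psmd2, chr16:20651402-20651651, plus strand: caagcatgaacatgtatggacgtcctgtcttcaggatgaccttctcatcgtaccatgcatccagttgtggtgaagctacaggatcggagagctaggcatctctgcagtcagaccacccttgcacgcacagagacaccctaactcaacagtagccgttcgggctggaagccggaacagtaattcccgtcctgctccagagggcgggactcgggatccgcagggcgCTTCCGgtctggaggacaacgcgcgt
Psmd13, chr7:140882144-140882393, plus strand: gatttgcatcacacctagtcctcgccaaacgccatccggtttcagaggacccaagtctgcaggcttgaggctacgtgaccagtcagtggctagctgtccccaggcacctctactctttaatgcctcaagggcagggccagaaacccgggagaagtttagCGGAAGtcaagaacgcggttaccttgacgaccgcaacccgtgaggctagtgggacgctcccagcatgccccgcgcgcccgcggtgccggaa
Psmg1, chr16:95990961-95991210, minus strand: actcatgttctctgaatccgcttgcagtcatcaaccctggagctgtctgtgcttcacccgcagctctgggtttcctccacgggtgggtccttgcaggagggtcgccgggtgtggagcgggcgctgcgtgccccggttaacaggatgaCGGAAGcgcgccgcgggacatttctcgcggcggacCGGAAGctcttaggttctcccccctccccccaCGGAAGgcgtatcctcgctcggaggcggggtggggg
Pomp, chr5:147860378-147860627, plus strand: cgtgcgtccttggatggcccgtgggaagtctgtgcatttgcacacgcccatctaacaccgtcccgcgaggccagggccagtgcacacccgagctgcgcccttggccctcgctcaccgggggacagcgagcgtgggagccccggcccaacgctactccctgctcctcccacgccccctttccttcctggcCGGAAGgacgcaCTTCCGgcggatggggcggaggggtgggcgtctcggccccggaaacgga
In Psmd2 the match lay 26 bases before the start, and in Psmg1 there were 3 matches between 103 and 36 bases before the start. Across the list 19 of 35 promoters held CGGAAG on either strand (54.3%), against 25.8% of the promoters of genes tested and 15.3% of all 27025. The 19 also include genes with no call in any comparison of genotypes, such as Psmd14. A match is a description of the letters, and binding was not measured.

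Of 12 motifs searched on both strands, the binding core TGACNNNGC of NFE2L1, the factor known to induce proteasome genes when the proteasome is inhibited, was held by 5 of 35 promoters (14.3%), against 13.6% of genes tested. It is shown for the 2 catalytic subunits that hold it, as the stretch up to and around the match.
Psmb5, chr14:54618009-54618067, minus strand: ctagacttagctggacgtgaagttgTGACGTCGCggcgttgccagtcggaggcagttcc
Psmb6, chr11:70525323-70525356, plus strand: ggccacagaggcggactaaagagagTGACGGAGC
The motif of nuclear respiratory factor 1 was held by 17.1% against 8.11% of genes tested. GGGCGG, the GC box, was held by 60% against 58.7%, CCAAT, the NF-Y box, by 34.3% against 39.8%, and the core of the interferon-stimulated response element by 8.57% against 3.32%. GGAAGTG, a longer ETS motif that can share bases with CGGAAG, was held by 17.1% against 12.8%. The heat shock element GAANNTTC was in 5.71% against 6.21%, TATAAA in 8.57% against 9.19%, CACGTG in 8.57% against 9.46%, TGACGT, which can overlap TGACNNNGC, in 11.4% against 10.6%, and AAGATGGC in 0 of 35 against 2.25%.

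**Figure D3:**
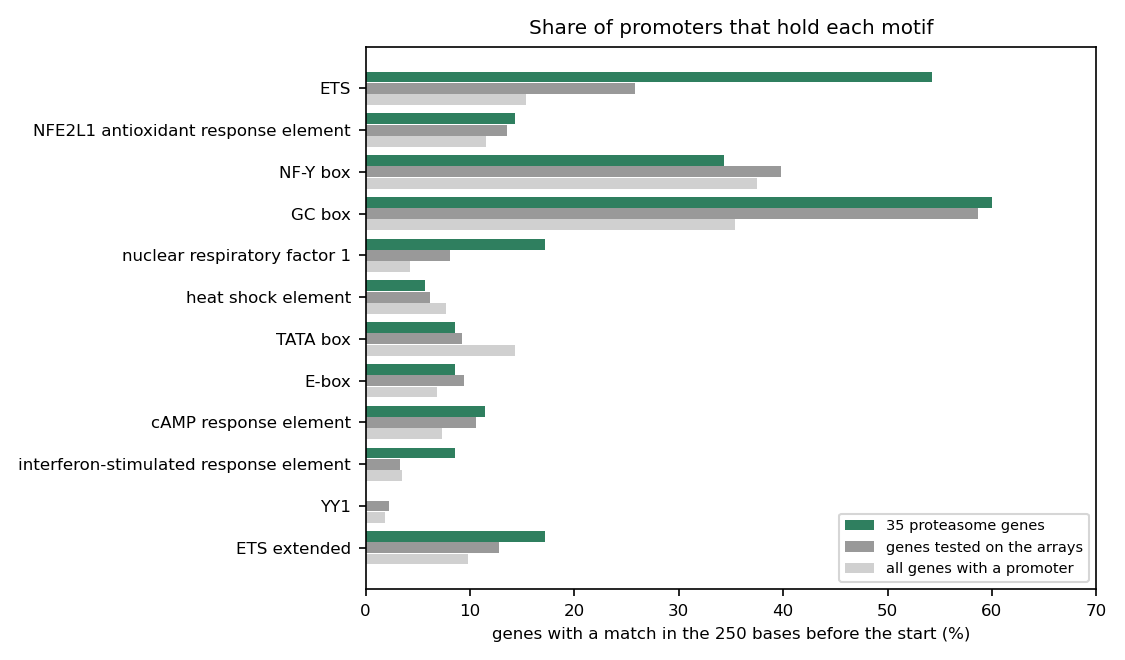
Share of promoters, in percent, with at least 1 match in the 250 bases before the gene's start, for the 35 proteasome genes (green), the genes tested on the arrays (dark grey) and all genes with a promoter (light grey). The ETS core stands at 54.3% in the proteasome genes and 25.8% in the genes tested, while the GC box is at 60% and 58.7%.

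The proteasome genes moved together from array to array. On WT replicate 3 all 41 lay above the mean of their genotype and replicate set, on WT replicate 6 and Sting gt/gt replicate 5 it was 40 of 41, and on Sting gt/gt replicates 3 and 7 only 1 of 41. On WT replicates 2, 4 and 7 the counts were 2, 3 and 8. Over all genes that share stayed between 47.8% and 52.9% on every array. The pattern was not particular to the proteasome genes. Within genotype and replicate set, each of 7 proliferation genes among the markers below read lowest on WT replicate 2 and Sting gt/gt replicates 3 and 7. Each read highest on WT replicate 6. The average over the 41 genes ranged from 3.56 to 3.90 in WT and from 3.53 to 4.02 in Sting gt/gt, and the groups overlapped. In replicates 4-7 it ranged from 3.56 to 3.87 in WT and from 3.67 to 4.02 in Sting gt/gt, again overlapping. The 41 genes are therefore not independent readings of the genotype.

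**Figure D4:**
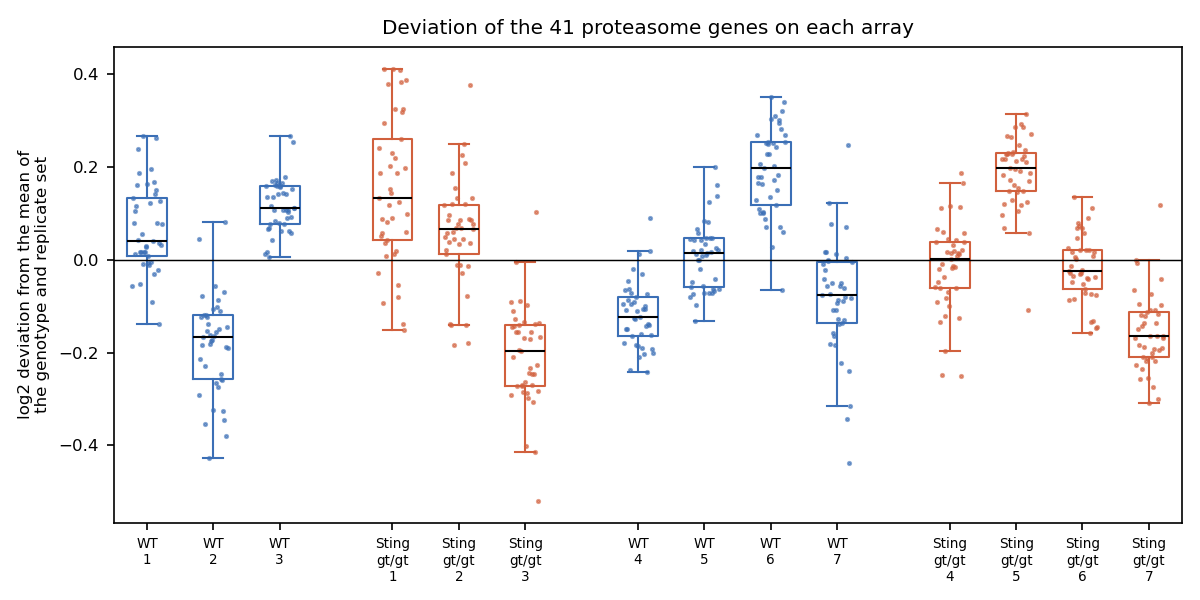
Deviation of each of the 41 genes, in log2, from its mean over the arrays of the same genotype and replicate set, with 1 point per gene and a box per array (median, quartiles, whiskers to 1.5 times the box). Whole boxes lie above 0 on WT replicates 1, 3 and 6 and Sting gt/gt replicates 1, 2 and 5, and below 0 on WT replicates 2, 4 and 7 and Sting gt/gt replicates 3 and 7.

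The spread within genotype and replicate set had a median SD of 0.17 over the 41 genes, from 0.08 (Psma4) to 0.32 (Psmf1). Over all genes it was 0.23, and over the 9357 genes at least as bright as the dimmest of the 41 it was 0.18.

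Between replicates 4-7 and 1-3, in a fit that also held genotype, 11 of the 41 proteasome genes were called (26.8%), where 47.3% of all genes were. Of the 11, 4 were higher and 7 lower in replicates 4-7, where 21.6% and 25.7% of all genes were, and 7 passed the adjusted threshold (17.1%), where 38.8% of all genes did. With quantile normalization 15 were called higher and 6 lower, where 6817 and 5330 of all 24908 genes were. With median centring it was 15 and 2, where 9124 and 3922 of all genes were, so the direction of these counts depended on the scaling. The largest shifts, named after their values were seen, were in Psmb2, a structural beta subunit, and Psmc5, an ATPase. Psmb2 read 1.01, 0.59 and 0.86 in WT replicates 1-3 and -0.12, 0.13, 0.22 and 0.24 in WT replicates 4-7, a shift of -0.72 ± 0.12 (limma adjusted p = 0.000388). The 2 sets did not overlap in WT, and Sting gt/gt showed the same order. Psmc5 shifted by -0.56 ± 0.10 and Psmb6 by -0.34 ± 0.08, and Psmd2 shifted upward by 0.47 ± 0.12. In the series table that the authors deposited, 1 of the 41 genes was called between the sets, where 348 of all 24908 genes were. Scan day and any difference between the mice of the sets cannot be told apart.

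**Figure D5:**
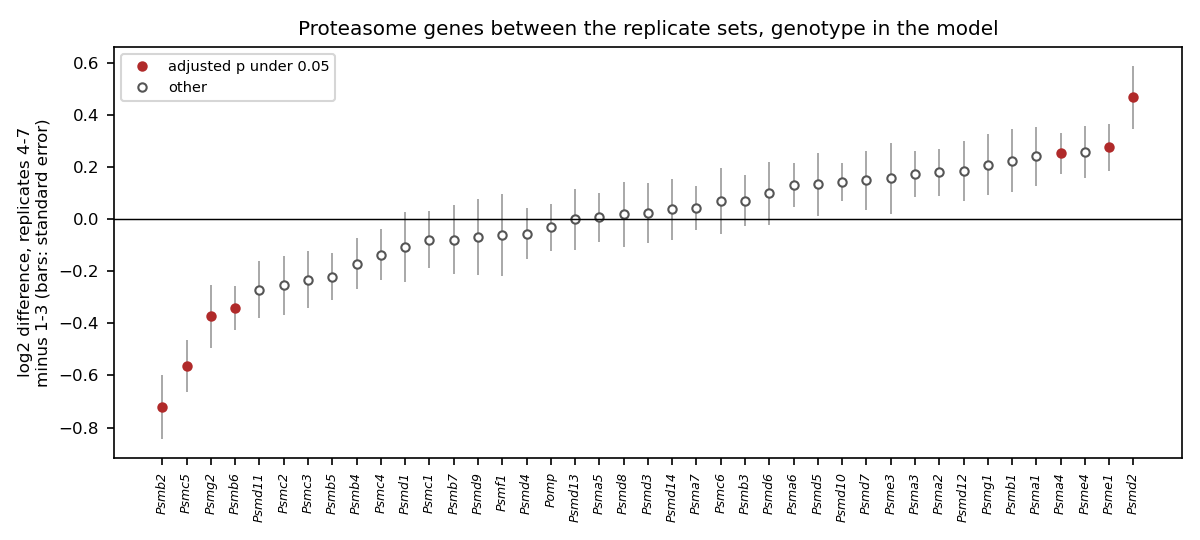
Log2 difference of the 41 genes between replicates 4-7 and 1-3, from a fit that also held genotype, with bars for the standard error, ordered by value. The 7 filled points passed an adjusted p under 0.05 and run from -0.72 (Psmb2) to 0.47 (Psmd2).

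Among 34 other measured genes of the ubiquitin and proteasome pathway, 6 were called higher and 1 lower in replicates 4-7 (11% and 12.3% over all genes). Psmb10, the immunoproteasome counterpart of Psmb7, differed there by 0.37 (limma adjusted p = 0.154) and was called, while Psmb9 and Psmb8, the counterparts of Psmb6 and Psmb5, differed by 0.26 and 0.03 with no call. Nfe2l1 differed by 0.22 with no call.

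Markers of several cell types differed in the same arrays. In replicates 4-7, 5 of 7 B cell genes were called lower in Sting gt/gt, and the average of the 7 ranged from 3.11 to 3.65 in WT and from 2.77 to 3.09 in Sting gt/gt, without overlap. Of 6 plasma cell genes 3 were called higher, led by Sdc1 at 0.84, and the average of the 6 ranged from 1.66 to 1.997 in WT and from 1.98 to 2.36 in Sting gt/gt. Prdm1 and Irf4 lay lower, at -0.28 and -0.16, and Mzb1 differed by 0.08, all with no call. Of 8 erythroid genes 6 were called lower, with averages of the 8 from 5.03 to 5.45 in WT and from 4.57 to 4.91 in Sting gt/gt. The globin genes Hba-a1 and Hbb-bt differed by 0.02 and 0.09, with no call. No T cell gene of 7 and no proliferation gene of 7 was called, 1 of 8 neutrophil genes was called higher, 1 of 5 dendritic cell genes was called lower, and no gene of 7 for macrophages and monocytes or of 5 for NK cells was called. In replicates 1-3, 1 of 7 B cell genes, 1 of 7 macrophage and monocyte genes and 1 of 5 NK cell genes were called higher and 1 of 6 plasma cell genes lower. There 6 of 7 B cell genes lay above 0, with a median of 0.29, while in replicates 4-7 all 7 lay below, with a median of -0.49. The test of the difference between the sets called 6 of 7 B cell genes lower in replicates 4-7 (10.3% of all genes) and 3 of 6 plasma cell genes higher (7.7%). The part of these cell types in the proteasome genes' values was not tested.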

How the data were processed

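Splenocyte RNA of 7 WT and 7 Sting gt/gt mice was labelled with Cy3 and hybridised to one-colour Agilent arrays, which the authors read with Feature Extraction 11.0.1.1. The deposited scanner files hold the processed signal, an intensity with background subtracted but no scaling between arrays. The series table that the authors deposited holds log2 values whose normalization is not given in the sources used here; its array medians ran from 5.485 to 5.518, and it served as an alternative.

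Control spots and outlier-flagged spots were dropped (11 values of tested genes), spots of a probe were averaged on the log2 scale, and the 75th percentile of each array's processed signal over all spots was subtracted. Accessions were named through RefSeq, which matched 32994 of 56605 probes. A probe was tested if well above background on at least 7 arrays, the majority of its spots deciding, and each gene was read from its brightest such probe; 19 of the 41 genes had several, 65 probes in all. Groups came from the sample labels. Fits used limma 3.58.1 in R 4.3.3 (lmFit, eBayes) without covariates for genotype, on all 14 arrays, on replicates 1-3 and on replicates 4-7; a fit of 4 groups tested the difference between the sets, and a fit with genotype and replicate set tested the sets. The script was tested on simulated data. The number of arrays limits the precision, and p-values measure only the spread between these samples.

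Same-numbered samples deviated together, with correlations from 0.156 to 0.533, all over 0.1, so a fit with the replicate number as a block is given where it changed a call; with scan-day means removed the correlations ran from -0.408 to 0.249, so within a replicate set this check does not show pairing. Genes were named if called in a comparison of genotypes, together with Psmb5, Psmb6, Psmb7, Psmf1, Pomp, Psme1, Psma3, Psmd13, Psmd14, Psmb8, Psmb9, Psmb10, Nfe2l1 and other pathway genes called in the 7 against 7 fit, a result not reported here. The members and lists were chosen with earlier results of these data known. Besides 16 other settings and each array left out in turn, the 75th percentile over probe averages and a replicate block within the sets were tried, chosen after results were seen.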

Additional observations from a re-analysis of the deposited data

Results flagged for a closer look

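The genotype difference was larger in replicates 4-7 than in replicates 1-3, by the test of that difference itself at an unadjusted limma p under 0.05, in 11 of the named genes, where 18% of all genes differed in either direction. Being called by this test was itself a reason to name a gene, so the count of 11 supports nothing. For the proteasome genes the gap was 0.59 for Psmd2, 0.56 for Psmg1, 0.51 for Psmg2, 0.49 for Psmd13, 0.46 for Psmd3, 0.44 for Pomp, 0.42 for Psmb3, 0.37 for Psmd4 and 0.31 for Psma4, in log2. For the other pathway genes it was 0.54 for Psmb10 and 0.40 for Nfe2l1. None passed the adjusted threshold. No array stood apart from its group by Dixon's test in 88 groups examined, where chance flags about 1 group in 20.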

How the results depend on the processing

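Over 31 alternative settings, 14 of which leave out 1 array, the count of 0 proteasome genes called with 7 mice per genotype became 1 by the methods' t-test, 1 by the Mann-Whitney test, 6 with array weights and an intensity trend, and 0 to 1 when arrays were left out in turn. With the replicate block it was 0, as in the fit without it, and 1416 genes in place of 868 were called over the whole array. That count was 1928 with the authors' series table, 4360 with array weights, 1812 with scan day as a term, 445 with slide as a random block, and 496 to 1967 with arrays left out (539 without Sting gt/gt replicate 5, 496 without replicate 6, 1967 without replicate 1). Calls split as 464 higher and 404 lower, but 250 of 818 were higher with median centring and 149 of 763 without scaling. Taking the 75th percentile over probe averages, an alternative chosen after seeing the data, called 882 genes and the same numbers of proteasome genes (0, 0, 8, 9 and 11 in the 5 comparisons).

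In replicates 4-7 the 8 calls became 7 with the replicate block, 2 without scaling and 4 to 13 with arrays left out, and the median ranged from 0.07 to 0.20. Over all genes the 5805 calls there became 5784, 4174 and 4115 to 6985. In replicates 1-3 the count stayed 0, with medians from -0.15 to 0.01. For the difference between the sets the 9 calls became 5 with the replicate block, 5 without scaling, 5 with the mean of a gene's probes, and 3 to 12 with arrays left out, with medians from 0.13 to 0.30. Over all genes the 4476 calls of that test became 4465, 3056, 4319 and 3622 to 5214. Between the sets, 11 calls became 21 with quantile normalization, 17 with median centring (median 0.20) and 1 with the authors' series table, and 10 to 15 with arrays left out. Over all genes the 11777 calls became 12147 with quantile normalization, 13046 with median centring and 348 with the series table. Median centring moved the median of all genes from -0.01 to 0.17 there, and from 0.00 to 0.11 for the difference. The replicate block within a set and every setting of the difference between the sets and of the comparison of the sets were added after seeing the data, and the cause of these changes was not tested.

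Slide as a fixed block compares the genotypes only on slides that held both, namely WT replicates 1-3 with Sting gt/gt replicates 1 and 2. Its values come from these arrays alone, so it does not adjust the 7 against 7 difference for slide. In that fit the genotype difference turned sign against the 7 against 7 fit in Pomp (-0.122), Psma4 (-0.0209), Psmb3 (-0.0385), Psmd13 (-0.0669), Psmd2 (-0.144), Psmd3 (-0.0312), Psmd4 (-0.0574), Psme1 (-0.0459), Psmf1 (0.0949), Psmg1 (-0.0594), Psmg2 (-0.0431), Psmb9 (-0.134), Psmb10 (-0.256) and Nfe2l1 (-0.171). It also turned with slide as a random block in Pomp (-0.00248), Psmd2 (-0.0361), Psmd4 (-0.0097) and Nfe2l1 (-0.0722), with quantile normalization in Psmb7 (-0.00665) and Psmd14 (-0.000108), with median centring in Psmb7 (-0.00605), without scaling in Psmb7 (-0.0483), Psmd14 (-0.0335), Psmd4 (-0.00206) and Nfe2l1 (-0.00204), with normexp in Psmb7 (-0.0376), with the series table in Psmb7 (-0.00846), with the mean of a gene's probes in Psma3 (-0.0253), with array weights in Psmb7 (-0.0484). With arrays left out in turn it ran from -0.0696 to 0.0533 for Psmb7, from -0.0315 to 0.077 for Psmd14, from -0.135 to 0.0166 for Psmf1, from -0.00387 to 0.0984 for Nfe2l1. All of these were uncalled in the 7 against 7 fit. Signal over background limits none of the 41 genes.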
